A study of Mus musculus with 2 samples.

Results

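Cytotoxic lymphocytes kill by emptying granules onto a target cell, and 9 genes of that machinery are described here: the granzymes Gzma, Gzmb, Gzmc, Gzmd, Gzme, Gzmf and Gzmg, perforin (Prf1) and the granule membrane protein NKG7 (Nkg7). They were picked by name, as the granzyme family members of interest with their pore-forming partner and a granule protein, and each of the 9 was found among the 27031 genes of the table. Perforin opens pores in the membrane of the target, and granzymes, which are serine proteases stored in the same granules, pass through and cleave proteins inside it. NKG7 takes part in the release of the granules. In tumors these genes mark activated CD8 T cells and natural killer (NK) cells, and Gzmb is also known from activated regulatory T cells.

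The study profiled immune cells of MC38 tumors, a mouse colon carcinoma line, by single-cell RNA sequencing on microwells (BD Rhapsody, whole transcriptome). MC38 cells were implanted under the skin of female C57BL/6 mice aged 6 to 8 weeks, and the mice were given vehicle (control) or telmisartan, a blocker of the angiotensin II type 1 receptor, by the intragastric route at 5 mg/kg daily from implantation. On day 13 live CD45+ cells were sorted from the tumors, the cells of 5 mice per group were pooled, each pool was labelled with its own Sample Tag, and both pools went through 1 capture. Each group is thus 1 pool of mice, so no test between groups was possible and no p-value is given.

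After the limits on tags, genes, mitochondrial share and doublets, 8969 of 20726 putative cells were kept. The control pool kept 4534 cells with 41589932 UMIs (unique molecular identifiers, each standing for 1 captured RNA molecule) and a median of 8690.5 UMIs per cell. The telmisartan pool kept 4435 cells with 30931572 UMIs and a median of 6358. Levels are UMIs of a gene per 1000000 UMIs of the same cells (CPM), which allows a gene to be compared between groups of cells and not one gene with another. Intervals are 95% intervals, by the exact Poisson method for levels, by the Clopper-Pearson method for shares and by the exact binomial split of the UMIs for log2 ratios. They cover counting error only, and cells and UMIs of 1 pool are not replicates.

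T cells were scarce in these tumors. A cell with at least 2 UMIs of Cd3d, Cd3e and Cd3g together was called a T cell, which gave 74 control and 106 telmisartan cells. T cells with more UMIs of Cd8a and Cd8b1 than of Cd4 were called CD8 T cells (37 control, 59 telmisartan), those with the opposite balance CD4 T cells (27 and 32), and 10 and 15 cells with equal values were left unresolved. All 12 T cell markers were detected in the CD8 and in the CD4 class. Cd3d, Cd3e and Cd3g are among the 12, so their detection follows from the rule and does not check the identity of the cells. All 3 B cell markers and all 5 mast cell and basophil markers were at 0 in both classes. Of 6 NK markers 3 were detected in CD8 cells (Tyrobp with 318 UMIs the most abundant; Ncr1, Klra4 and Klra8 at 0) and 2 in CD4 cells (Tyrobp with 172). All 9 macrophage markers were detected in both classes, with 3939 UMIs against 3353 of the T cell markers in CD8 and 2045 against 2790 in CD4 cells. CD8 cells made up 50% (38.1 to 61.9) of control T cells and 55.7% (45.7 to 65.3) of telmisartan T cells, intervals that overlap. With the lower bar of 1 CD3 UMI the shares were 32.3% and 36.8%.

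Where the 9 genes were read set 3 kinds of cells apart. CD8 T cells as a class held Gzma, Gzmb, Prf1 and Nkg7, CD4 T cells held Gzmb and Nkg7, and 7 cells with NK markers held most UMIs of Gzma, Prf1 and of the whole Gzmc to Gzmg group. Cells with macrophage markers, the most abundant class, were low per UMI, with 445 UMIs of the 9 members (8.70 CPM) in 5384 cells, 288 of them of Gzmc to Gzmg. These levels are descriptions of how the family is spread over the classes.

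The background came from 5384 cells without CD3 UMIs in which at least 1% of UMIs came from 9 macrophage markers, a cell type that should lack these genes. Gzmb stood at 1.62 CPM there and was seen in 1.39% of the cells. Nkg7 stood at 1.12 CPM and was seen in 0.984% of them. The other members ranged from 0.0782 CPM (Prf1) to 1.62 CPM (Gzmf), each a level of that gene against its own level elsewhere. The macrophage-marker cells were deep, with median UMIs of 10229 in the control and 7800.5 in the telmisartan pool, against 4405 and 3001 in CD8 T cells. The share of 0.241% of macrophage-marker cells with a Gzma UMI can be set beside 24.0% of all 96 CD8 T cells. Dendritic-marker and neutrophil-marker cells were at a like low level, with 15 UMIs of all 9 members in 216 cells and 13 UMIs in 207 cells.

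**Figure D1:**
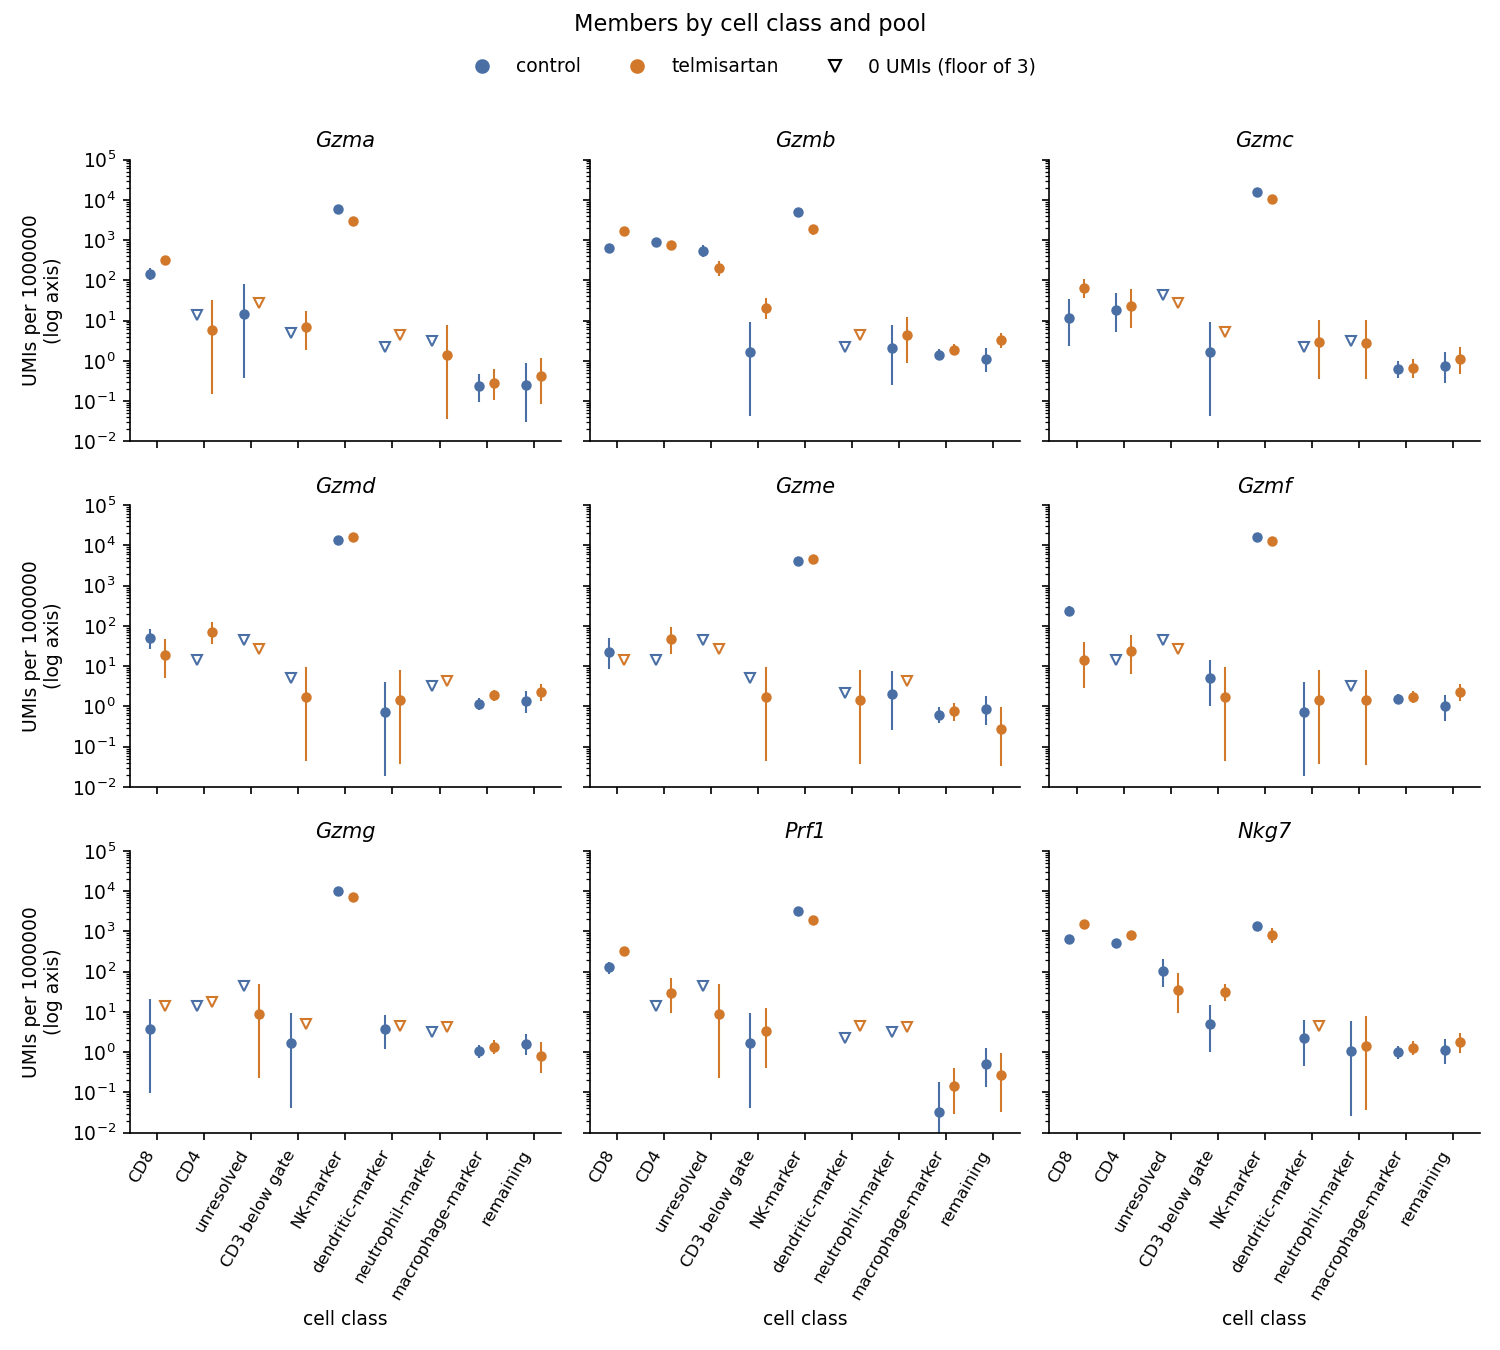
Level of each of the 9 genes (UMIs per 1000000 UMIs of the class, log axis) in 9 classes of cells, control pool in blue and telmisartan pool in orange, with exact Poisson 95% bars for counting error and open triangles at the level of 3 UMIs where none was counted. In both pools each gene is highest in the NK-marker cells, except Nkg7 in the telmisartan pool, where CD8 T cells are higher (1523 CPM), and Gzmb of that pool has overlapping bars in both classes; no gene is above 3.26 CPM in macrophage-marker or remaining cells of either pool.

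Perforin and granzyme A, the pore former and a trypsin-like protease, were read in CD8 T cells and hardly in CD4 T cells of both pools. Granzyme B was shared, with a lower level in CD8 than in CD4 T cells of the control pool and a higher one in the telmisartan pool. Nkg7 was read in both lineages. These comparisons set CD8 against CD4 T cells within a pool, so that tag, mice and capture are the same on both sides.

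In the control pool, CD8 T cells had 38 Gzma UMIs, or 147 CPM (104 to 201). CD4 T cells of that pool had 0, and 3 UMIs, the number a count of 0 allows, would be 14 CPM. Prf1 gave 33 UMIs in CD8 T cells, 127 CPM (87.6 to 179), and again 0 in CD4 T cells, so neither interval reached the level allowed in CD4 cells. In the telmisartan pool, Gzma gave 69 UMIs and 319 CPM (249 to 404) in CD8 T cells against 1 UMI in CD4 T cells, a log2 ratio of 5.78 (3.25 to 11.10). Prf1 gave 72 UMIs and 333 CPM (261 to 420) against 5 UMIs in 3 CD4 cells, a log2 ratio of 3.52 (2.23 to 5.18), or 4.64 with a tag share of 90%. Gzmf, a granzyme of the chromosome 14 group described further on, had 62 UMIs in CD8 T cells of the control pool, from 5 cells, and 0 in CD4 T cells, against 3 and 4 UMIs in the telmisartan pool. Gzmc to Gzmg together gave 85 UMIs in CD8 and 4 in CD4 T cells of the control pool, a log2 ratio of 4.13 (2.73 to 6.04), and 21 and 28 in the telmisartan pool, a log2 ratio of -0.75 (-1.64 to 0.12), which was 0.47 without the mitochondrial limit and 1.12 with strict lineage calls (at least 2 UMIs of 1 lineage and 0 of the other). In the telmisartan pool 1 CD8 cell held 14 of the 21 UMIs and 1 CD4 cell 22 of the 28. Without these cells the telmisartan ratio was -0.09 (-1.89 to 1.76), and over the alternatives it ran from -1.74 to 1.12. Without doublet removal the control value was 2.05.

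Gzmb, the protease that cuts after aspartate and sets off caspases, was at 628 CPM (536 to 733) in control CD8 T cells and at 891 (769 to 1027) in control CD4 T cells. The log2 ratio of CD8 to CD4 was -0.50 (-0.81 to -0.19) and became 0.00 with strict lineage calls. In the telmisartan pool Gzmb was at 1713 CPM (1543 to 1896) in CD8 and at 746 (622 to 886) in CD4 T cells, a log2 ratio of 1.20 (0.91 to 1.50). The CD8 and CD4 intervals were apart in both pools, in opposite order.

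Nkg7 was at 667 CPM (571 to 774) in control CD8 T cells and at 523 in control CD4 T cells, a log2 ratio of 0.35 (0.00 to 0.71). In the telmisartan pool it was at 1523 CPM (1363 to 1697) and 815 CPM, a log2 ratio of 0.90 (0.61 to 1.20). The sum of all 9 members was higher in CD8 than in CD4 T cells by 0.41 (0.20 to 0.62) in the control and by 1.18 (0.99 to 1.37) in the telmisartan pool on the log2 scale.

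Read against all genes, the counts were as follows. Among genes with at least 20 UMIs over both classes, 5 members were measured in the control pool and 3 of them (Gzma, Gzmf and Prf1) were at least 2-fold higher in CD8 T cells, where 6.71% of 4216 genes were, and 0 were at least 2-fold lower, where 8.23% were. In the telmisartan pool 4 members were measured and 3 (Gzma, Gzmb and Prf1) were at least 2-fold higher, against 7.14% of 3584 genes, and 0 lower, against 9.38%. The median log2 ratio over all measured genes was -0.03 and -0.06. Per cell without scaling those medians fell by 0.18 and 0.55, which turned no member ratio given here. A member with counts in 1 class alone passes the bar of 20 UMIs through that class, so these counts describe the members and support nothing further.

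The genes beside them differed by list. Of the other effector genes, 4 of 7 measured in the control pool and 5 of 9 in the telmisartan pool were at least 2-fold higher in CD8 T cells and 1 and 0 lower, with list medians of 1.28 and 1.21. Of the killer lectin receptors, 3 of 4 and 3 of 5 were higher, and 1 was lower in each pool. Some of the other lists had none higher in the control pool: granzyme inhibitors (0 higher and 2 lower of 5), the IL-2 receptor (0 and 2 of 3), regulators of granule genes (0 and 2 of 11) and checkpoint genes (0 and 4 of 7). The telmisartan pool had 0 and 1 of 5, 0 and 1 of 3, 1 and 2 of 11, and 0 and 2 of 8 in the same order. Granule processing and release had 1 higher and 1 lower of 9 in the control pool, and 2 and 2 of 9 in the telmisartan pool. Naive and memory genes had 1 and 2 of 4 in the control pool, and 0 and 1 of 5 in the telmisartan pool. Of 6 regulatory T cell genes (Foxp3 and its companions), 6 and 5 were at least 2-fold lower in CD8 T cells. RNA of macrophages did not stand level: the summed 9 macrophage markers were at 12592 CPM in control CD8 and 6756 CPM in control CD4 T cells, and at 3115 and 3477 CPM in the telmisartan pool, and their part in these ratios was not tested.

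Within CD4 T cells the Gzmb UMIs sat with Foxp3, the lineage factor of regulatory T cells. This split was chosen after the values were seen. The 25 CD4 T cells with a Foxp3 UMI held 277 Gzmb UMIs, or 1457 CPM (1291 to 1639), and the 34 cells without one held 42, or 214 CPM (154 to 290). A Gzmb UMI was found in 21 of 25 cells (84.0%) against 7 of 34 (20.6%). The cells with Foxp3 were deeper, with median UMIs of 6297 against 3801, and after thinning every cell to 500 UMIs the shares were 40.0% and 11.8%.

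The gap was there in each pool. Control cells with Foxp3 (14) were at 1516 CPM (1302 to 1756) of Gzmb and those without (13) at 134 CPM (71.4 to 229). Telmisartan cells with Foxp3 (11) were at 1362 CPM (1107 to 1658) and those without (21) at 293 CPM (196 to 421). Between pools the intervals of like cells overlapped, both with and without Foxp3, which does not show that the levels were alike. Cells without Foxp3 were higher in the telmisartan pool (293 against 134 CPM), and cells with Foxp3 were lower there (1362 against 1516 CPM). Nkg7 went the other way, at 468 CPM (376 to 576) with and 832 CPM (709 to 970) without Foxp3 over both pools, although the telmisartan values, 771 and 848 CPM, lay close together. Gzma gave 1 UMI and Prf1 5 UMIs in all 59 CD4 T cells, too few to split.

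CD8 T cells also differed among themselves, in splits again chosen after the values were seen. The 9 CD8 cells with a UMI of Tcf7, a factor of naive and memory T cells, were at 68.0 CPM (14 to 199) of Gzmb, from 3 UMIs, against 1229 CPM (1126 to 1338) in the other 87. Nkg7 was at like levels in both, 1088 and 1053 CPM, and so were the depths, with median UMIs of 3201 and 3286. The 22 CD8 cells with a UMI of the proliferation gene Mki67 were at 36.4 CPM (13.4 to 79.2) of Gzma and 60.7 CPM of Prf1, against 325 CPM (265 to 395) and 306 CPM in the other 74. Gzmb was nearer, at 934 CPM (793 to 1094) in cells with Mki67 and 1220 CPM (1100 to 1349) in cells without. The cells with Mki67 were deeper, with median UMIs of 6302.5 against 2878. Both splits join the pools, whose CD8 levels of Gzma, Gzmb and Prf1 differed. Cells with Mki67 were 7 control and 15 telmisartan cells, and those with Tcf7 were 4 and 5.

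The comparison the study was built for sets telmisartan against control. In CD8 T cells Gzma, Gzmb, Prf1 and Nkg7 were each more than 2-fold higher in the telmisartan pool when the UMIs of all cells were summed. With each cell given equal weight none of the 4 was past 2-fold: Gzmb was at 0.94, Nkg7 at 0.80 and Prf1 at 0.32 on the log2 scale, and Gzma turned to -0.04. Gzmf was lower in the same pool. The T cell markers were higher there too and the macrophage markers lower, and ratios without the cells rich in macrophage RNA are given further on. In CD4 T cells neither of the 2 members with at least 20 UMIs, Gzmb and Nkg7, was past 2-fold.

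Gzmb in CD8 T cells went from 163 UMIs and 628 CPM (536 to 733) in the control pool to 370 UMIs and 1713 CPM (1543 to 1896) in the telmisartan pool. The log2 ratio was 1.45 (1.18 to 1.72), and the intervals of the pools were apart. It was found in 22 of 37 control cells (59.5%) and 38 of 59 telmisartan cells (64.4%), and in 18.9% and 35.6% after thinning to 500 UMIs. A few cells carried much of it, with 48 UMIs in the highest control cell and 99 in the highest telmisartan cell.

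Prf1 went from 33 UMIs and 127 CPM (87.6 to 179) to 72 UMIs and 333 CPM (261 to 420), a log2 ratio of 1.39 (0.78 to 2.03), or 0.32 as a mean of the UMIs per 10000 of each cell. The intervals were apart, but 1 telmisartan cell held 27 of the 72 UMIs. The share of cells with a Prf1 UMI was 32.4% (12 of 37) in the control and 33.9% (20 of 59) in the telmisartan pool, and 8.11% and 10.2% after thinning.

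Gzma went from 38 UMIs and 147 CPM (104 to 201) to 69 UMIs and 319 CPM (249 to 404), a log2 ratio of 1.12 (0.53 to 1.74), which became -0.04 as a mean of the UMIs per 10000 of each cell. It was found in 9 of 37 control cells (24.3%) and 14 of 59 telmisartan cells (23.7%), and in 8.11% and 13.6% after thinning. The share before thinning thus did not follow the summed level. The shares after thinning came from a single random draw with few positive cells, so they gave no order.

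Nkg7 went from 173 UMIs and 667 CPM (571 to 774) to 329 UMIs and 1523 CPM (1363 to 1697), a log2 ratio of 1.19 (0.92 to 1.47). It was the member found in most CD8 cells, 26 of 37 (70.3%) in the control and 53 of 59 (89.8%) in the telmisartan pool. After thinning the shares were 35.1% and 62.7%.

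Gzmf went against the others, with 62 UMIs and 239 CPM (183 to 306) in the control and 3 UMIs and 13.9 CPM (2.86 to 40.6) in the telmisartan pool. The log2 ratio was -4.11 (-6.42 to -2.49). Those 62 UMIs came from 5 of the 37 control cells, with 21, 17, 10, 10 and 4 UMIs, and the 3 telmisartan UMIs from 3 cells, so the value rests on few cells, and it was -3.28 with a tag share of 90% and -2.10 without the mitochondrial limit. Its neighbours in the genome were sparse in CD8 T cells: Gzmd had 13 and 4 UMIs, Gzmc 3 and 14, of which 1 cell held 10, Gzme 6 and 0, and Gzmg 1 and 0. The 5 genes Gzmc to Gzmg together were at 328 CPM in the control and 97.2 CPM in the telmisartan pool, a log2 ratio of -1.75 (-2.52 to -1.05), which was -0.73 without the mitochondrial limit, -0.68 with at most 10% mitochondrial UMIs and -0.89 with a tag share of 90%. The top cell held 30 of their 85 UMIs in the control and 14 of 21 in the telmisartan pool. Without these cells the ratio was -2.73 (-4.11 to -1.59).

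Summed, the 9 members went from 492 UMIs and 1897 CPM to 861 UMIs and 3986 CPM in CD8 T cells, a log2 ratio of 1.07 (0.91 to 1.23). Of the 5 members with at least 20 UMIs, 4 were at least 2-fold higher, where 10.5% of 4154 genes were, and 1 (Gzmf) at least 2-fold lower, where 11.5% were. The members' median was 1.19 and that of all genes 0.05. On the scale of UMIs per cell, without a total, the median of all genes fell by 0.94 and the sum of the members was at 0.13. As a mean of the UMIs per 10000 of each cell the sum was at 0.43. Without a total every ratio moved by that same 0.94. Higher values smaller than the shift, those of the lists described beside the members included, thus turned lower on that scale. Relative to the median of all genes the sum was 1.02 above it on either scale. As a mean of the UMIs per 10000 of each cell, the sum was 0.42 above that median.

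Markers of the cells themselves moved with the pools. All 12 T cell markers were higher in telmisartan CD8 cells, 5 of them at least 2-fold, and their sum went from 4977 to 9545 CPM, a log2 ratio of 0.94 (0.84 to 1.04). The 12 include the CD3 genes of the T cell rule, and the telmisartan CD8 cells were shallower, with median UMIs of 3001 against 4405. The part of that rule in this ratio was not tested. All 9 macrophage markers were lower, 8 of them at least 2-fold, none was at 0, and their sum went from 12592 to 3115 CPM, a log2 ratio of -2.02 (-2.14 to -1.89). The most abundant was Lyz2, with 1376 control and 363 telmisartan UMIs. Of 37 control CD8 cells 8 had over 1% macrophage-marker UMIs, and of 59 telmisartan cells 3 had.

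Without those cells, 29 control and 56 telmisartan CD8 cells were left, with like depths (median UMIs 2845 and 2878). Gzmb was then at 910 and 1869 CPM, a log2 ratio of 1.04 (0.74 to 1.35). Prf1 was at 190 and 367 CPM, a log2 ratio of 0.95 (0.28 to 1.67). Both were higher in the telmisartan pool with intervals clear of 0. Nkg7 was at 1054 and 1630 CPM, a log2 ratio of 0.63 (0.34 to 0.93). Gzma was at 281 and 341 CPM, a log2 ratio of 0.28 (-0.32 to 0.90), a difference not detectable at this depth. Gzmf kept its direction, with 24 and 3 UMIs and a log2 ratio of -3.57 (-5.95 to -1.86). Of the 5 measured members, 1 (Gzmb) was then at least 2-fold higher, where 8.35% of 3090 genes were, and 1 (Gzmf) at least 2-fold lower, where 7.70% were. The T cell markers still differed, by 0.39 (0.28 to 0.50), and the macrophage markers by -1.31, while the sum of the 9 members was at 0.67 (0.49 to 0.85). Per UMI of the 12 T cell markers in all CD8 cells, the sum of the members was at 0.13, Gzmb at 0.51, Prf1 at 0.45, Nkg7 at 0.25 and Gzma at 0.19.

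In CD4 T cells Gzmb went from 191 UMIs and 891 CPM (769 to 1027) to 128 UMIs and 746 CPM (622 to 886), a log2 ratio of -0.26 (-0.59 to 0.07), which was 0.03 with at most 10% mitochondrial UMIs, and the intervals overlapped. It was found in 14 of 27 (51.9%) and 14 of 32 cells (43.8%), and in 29.6% and 18.8% after thinning. Without cells with over 1% macrophage-marker UMIs, 21 and 29 cells were left and Gzmb was at 1234 and 767 CPM, a log2 ratio of -0.69 (-1.04 to -0.34). Over the alternatives the log2 ratio of Gzmb in CD4 T cells ran from -0.82 to 0.03. Cells with Foxp3, the main holders of Gzmb, were 14 of 27 in the control and 11 of 32 in the telmisartan pool.

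Nkg7 in CD4 T cells went from 112 UMIs and 523 CPM to 140 UMIs and 815 CPM, a log2 ratio of 0.64 (0.27 to 1.01). It was found in 17 of 27 (63.0%) and 24 of 32 cells (75%), but in 29.6% and 25.0% after thinning, so its share gave no order at equal depth. The other members were near the limit of detection. Gzma had 0 and 1 UMIs, Prf1 0 and 5, Gzmc 4 and 4, Gzmf 0 and 4, and Gzmg 0 and 0. Gzmd had 0 and 12 and Gzme 0 and 8, and together Gzmc to Gzmg went from 4 UMIs and 18.7 CPM to 28 UMIs and 163 CPM, a log2 ratio of 3.13 (1.61 to 5.10). Of those 28 UMIs 22 were in 1 telmisartan cell, and without the top cell of each pool 1 and 6 UMIs were left, with an interval that included 0. The ratio was 0.84 without doublet removal and 1.08 with strict lineage calls.

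The sum of the members in CD4 T cells was at 1432 and 1759 CPM, a log2 ratio of 0.30 (0.06 to 0.53), which turned to -0.27 per cell without scaling, to -0.18 per UMI of the T cell markers and to -0.02 without the cells rich in macrophage RNA. Per cell without scaling the median of all genes fell by 0.57. The sum was 0.27 above that median on either scale, because this scaling moves every gene alike. As a mean of the UMIs per 10000 of each cell, the sum was 0.09 above the median of all genes. Of 2 members with at least 20 UMIs, 0 were at least 2-fold higher, where 6.21% of 3609 genes were, and 0 at least 2-fold lower, where 7.15% were. The median of all genes was 0.03. The T cell markers (11 of 12 higher) went from 6150 to 8574 CPM, a log2 ratio of 0.48, and the macrophage markers (9 of 9 lower, 7 at least 2-fold, none at 0, Lyz2 the most abundant) from 6756 to 3477 CPM, a log2 ratio of -0.96. The difference between the CD8 and the CD4 ratios was not tested.

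**Figure D2:**
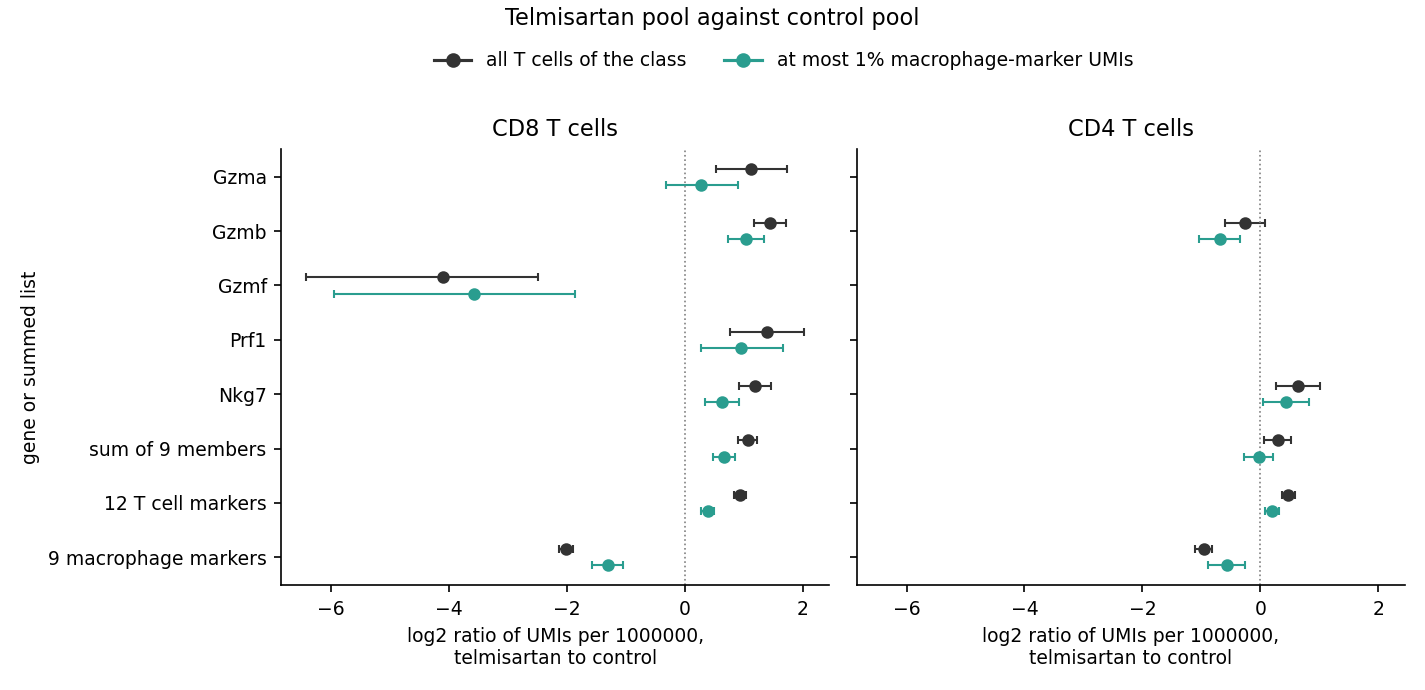
Log2 ratio of UMIs per 1000000, telmisartan pool to control pool, for 5 members, the sum of the 9 members and 2 summed marker lists in CD8 and in CD4 T cells; dark points use all cells, green points leave out cells with over 1% macrophage-marker UMIs, bars are exact 95% intervals for counting error, and genes with under 20 UMIs are not drawn. In CD8 T cells 4 members and the T cell markers lie above 0 and Gzmf and the macrophage markers below it (Gzma turns to -0.04 as a mean over cells), and in CD4 T cells the sum lies at 0.30, and at -0.02 without those cells and -0.27 per cell without scaling.

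The genes that work with the granule can be read beside the members, with the median of 0.05 over all genes in CD8 T cells and 0.03 in CD4 T cells for comparison. Of all genes 10.5% were at least 2-fold higher and 11.5% lower in CD8 T cells, and 6.21% and 7.15% in CD4 T cells, so that counts such as 1 of 9 or 1 of 5 lie near those shares. Of 9 measured genes of granule processing and release in CD8 T cells, 1 was at least 2-fold higher in the telmisartan pool and 4 were at least 2-fold lower, with a list median of 0.15. Stx11, a syntaxin needed for granule fusion, was at 19.3 and 102 CPM, a log2 ratio of 2.40. Ctsc, the protease that activates granzymes and is also abundant in macrophages, was at 1916 and 352 CPM, a log2 ratio of -2.45. The lysosomal membrane genes Lamp1 and Lamp2 and the protease Ctsh were the other 3 lower genes, with log2 ratios of -1.13, -2.22 and -1.62. Of 7 measured in CD4 T cells 3 were lower (Ctsc at -1.36, Lamp1 at -1.05 and Ctsh at -1.22), with a list median of -0.96. These 4 lower genes stood beside the lower macrophage markers, whose part was not tested.

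The remaining granzymes added 1 measured gene, Gzmk, at 61.7 and 120 CPM in CD8 T cells, a log2 ratio of 0.96 (0.01 to 1.96). The list of granzyme inhibitors, in which Cst7 was counted with the serpins, was led by Serpinb6b, at 88.7 and 403 CPM and a log2 ratio of 2.18. That list held 5 measured genes in CD8 T cells, 1 at least 2-fold higher and 0 lower, with a median of 0.78. Among CD4 T cells 1 of 5 was higher, Serpinb9b at 1.22, whose UMIs came from 2 control cells (36 UMIs) and 3 telmisartan cells (67 UMIs), with a median of 0.07.

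Effector cytokines and chemokines made by the same cells gave 5 of 8 genes at least 2-fold higher and 1 lower in CD8 T cells, with a median of 1.05. Ccl5 went from 590 to 1940 CPM (log2 ratio 1.72), Ccl3 from 490 to 1606 CPM (1.71) and Ifng from 443 to 944 CPM (1.09). The shares of CD8 cells with a UMI were nearly level: Ccl5 64.9% and 64.4%, Ccl3 37.8% and 35.6%, Ifng 40.5% and 39.0%. Ccl3 was also at 479 CPM in macrophage-marker cells, in 54.6% of them. These list values use the summed UMIs of all cells, with a count of 0 set to 3. A gene read in 1 pool alone can thus count as higher. The higher genes of this list that are not named had fewer UMIs than those named. Xcl1, which draws cross-presenting dendritic cells, was the 1 lower gene, at 752 and 148 CPM (-2.34), with its 195 control UMIs in 5 cells. The CD4 class had 1 of 6 higher, Tnfsf10 at 1.74, with a median of 0.27.

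Of transcription factors known to act on granule genes, 4 of 10 were at least 2-fold higher and 0 lower in CD8 T cells, with a median of 0.57: Bhlhe40 (1.92), Stat4 (1.34), Irf4 (2.03) and Tbx21 (2.03), the gene of T-bet. The CD4 class had 2 of 11 higher (Nfatc1 at 1.26 and Stat5a at 1.02), with a median of 0.60. The 3 chains of the IL-2 receptor, which drives granzyme B, gave 2 higher genes in CD8 T cells, Il2ra (2.40) and Il2rb (1.23), with a median of 1.23, and 0 in CD4 T cells, where the median was 0.26.

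Surface receptors of killing and checkpoint are given as counts, beside a ratio of 0.94 for the summed T cell markers of the same CD8 T cells. Of 5 killer lectin receptors 3 were at least 2-fold higher (Klrc1 at 1.12, Klrd1 at 1.05 and Klrc2 at 1.17), with a median of 1.05, and of 6 checkpoint genes 5 were, led by Ctla4 (1.32), Tnfrsf9 (2.01), Pdcd1 (1.80) and Havcr2 (1.26), with a median of 1.56. Regulatory T cell genes gave 4 of 4 measured higher with a median of 2.30, of which Il2ra and Ctla4 are also on the lists just named. Foxp3 itself, with 0 control and 1 telmisartan UMI in CD8 T cells, and Ikzf2, with 4 and 10, had too few UMIs to be counted. Naive and memory genes gave 2 of 5 higher (Ccr7, from 2 and 32 UMIs, at 4.26 with an interval of 2.29 to 7.37, and Slamf6 at 1.16) with a median of 0.15. Of 8 proliferation genes none was past 2-fold in either direction, with a median of -0.07.

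The same lists were read in CD4 T cells. Of 3 killer lectin receptors 1 was higher, Klrd1 at 2.25, with a median of 0.59. Of 8 checkpoint genes, 4 naive and memory genes and 6 regulatory T cell genes none was past 2-fold, with medians of 0.22, -0.39 and 0.19. Of 7 proliferation genes 3 were lower, Top2a (-1.01), Birc5 (-1.80, in 4 control and 2 telmisartan cells) and Cdk1 (-2.49, in 7 and 2 cells), with a median of -0.39. Other marker lists were thin in CD8 T cells: of the gamma delta T cell markers only Tcrg-C2 was measured, with 1 control and 26 telmisartan UMIs, and of the NK markers only Tyrobp, a gene macrophages share, with 281 and 37 UMIs. Of the remaining lists in CD8 T cells, Naaa was measured for cross-presenting dendritic cells (-2.74, from -5.11 to -1.02, with 3 telmisartan UMIs in 1 cell), Tcf4 with 1 other gene for plasmacytoid dendritic cells (-2.59 for Tcf4, in 10 control and 3 telmisartan cells), and no gene of the neutrophil, mast cell, B cell or tumor and stromal lists.

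The genes Gzmc, Gzmd, Gzme, Gzmf and Gzmg were spread in another way. They are neighbours that arose by duplication and are known in the mouse from highly activated killer cells and from NK cells of the uterus. In these tumors 90.3% of their kept UMIs, 5069 of 5616, lay in 7 cells, which also held 77.5% of the Gzma UMIs (455 of 587) and 67.1% of the Prf1 UMIs (253 of 377). The same cells held 25.6% of Gzmb (360 of 1406) and 11.0% of Nkg7 (108 of 978). Gene by gene the share was 94.1% for Gzmc, 90.4% for Gzmd, 86.1% for Gzme, 88.0% for Gzmf and 90.4% for Gzmg.

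These cells had at most 1 CD3 UMI and at least 3 UMIs of at least 2 of Ncr1, Klrb1c, Klra4, Klra8 and Eomes, a rule chosen after the data were seen. The lowest of the 7 had 5 such UMIs, and below the rule 4 cells had 2 and 70 had 1. All 6 NK markers were detected in the 7 cells together, but 5 of them are the genes of the rule and Tyrobp is shared with macrophages, so this does not check their identity. Ncr1 was read in 4 of the 7, and Trdc, a gamma delta T cell marker, in 28.6% of them with 4 UMIs. Cd3d, Cd3e, Cd8a, Cd8b1 and Cd4 were at 0, and so were all 5 mast cell and basophil markers, among whose cells granzymes can also occur. Of the 12 T cell markers 10 were detected, led by Thy1 with 150 UMIs. Of 9 macrophage markers 8 were detected, with 89 UMIs in all, 35 of them Lyz2, and C1qa at 0. The cells were deep (median 12673 UMIs), each had 86.2% to 98.6% of its tag reads from its own tag, and none was among the cells removed as doublets.

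There were 4 such cells in the control and 3 in the telmisartan pool, too few to compare the pools. The 9 members took between 1.16% and 9.90% of the UMIs of a cell. Gzmc to Gzmg together were at 58719 CPM in the control and 51028 CPM in the telmisartan cells. By comparison they were at 5.63 CPM in macrophage-marker cells, where 4.22% of cells had a UMI.

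The 7 cells were not alike. Control cell 1, with 22040 UMIs, had 680 UMIs of Gzmf and 1896 of the 5 genes together but 2 of Gzma. Control cell 3, with 13013 UMIs, had 272 of Gzma and 165 of Gzmc, 0 of Gzmd and of Gzme, and 1 each of Gzmf and Gzmg. This cell also had the most NK-marker UMIs, 66. Telmisartan cell 3 was the shallowest, with 3958 UMIs, and had 24 of Gzma, 16 of Gzmc, 1 of Gzmd and 0 of Gzmb, Gzme, Gzmf and Gzmg. In 5 of the 7 cells all of Gzmc to Gzmg were read, and in 2 of these 5 many Gzmf UMIs came with few of Gzma (680 and 2 in control cell 1, 127 and 1 in telmisartan cell 1). The share of 90.3% became 85.3% without control cell 1 and 73.7% without the mitochondrial limit. Over all putative cells the 7 held 48.9%, and 9 cells then passed the NK-marker rule and held 68.7%, with 1 added cell of split tags giving 2052 of these UMIs.

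**Figure D3:**
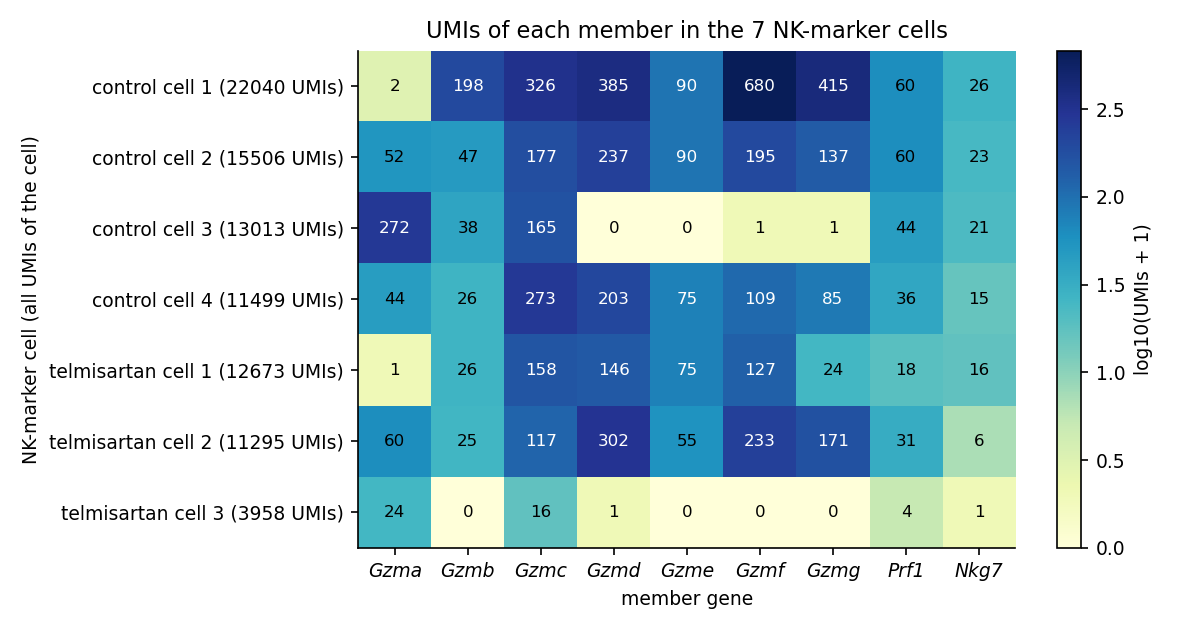
UMIs of each of the 9 genes (columns) in each of the 7 NK-marker cells (rows, with the UMIs of the whole cell), the number printed in each field and the colour on a log10 scale. In 5 cells all of Gzmc to Gzmg are read, while control cell 3 and telmisartan cell 3 have Gzma and Gzmc with at most 1 UMI of each of Gzmd to Gzmg.

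Of the UMIs of the 9 members in each class, the makeup differed. In CD8 T cells 39.4% were Gzmb and 37.1% Nkg7, in CD4 T cells 52.4% and 41.4%. The order of these genes differed by pool. In CD8 T cells Gzmb and Nkg7 had 163 and 173 UMIs in the control and 370 and 329 in the telmisartan pool. In CD4 T cells they had 191 and 112 in the control and 128 and 140 in the telmisartan pool. In NK-marker cells Gzmf gave 21.5%, Gzmd 20.4%, Gzmc 19.7% and Gzmg 13.3% of the UMIs, and without control cell 1 the shares were 16.4%, 21.9%, 22.3% and 10.3%, so that Gzmf was first through 1 cell. These are shares of counts within a class, not levels per transcript.

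Position set Gzmb and Gzmc to Gzmg apart from the rest. On chromosome 14 (GRCm38) 7 granzyme genes lay within 144635 bases, chr14:56117626-56262260, with 0 other coding genes between them and all on the minus strand, in the order Gzme, Gzmd, Gzmg, Gzmn, Gzmf, Gzmc and Gzmb. Gzma lay at chr13:113093825-113100981, on the chromosome that also carries Gzmk. Prf1 lay at chr10:61297833-61304680 and Nkg7 at chr7:43437073-43438249. Gzmb, at the end of the cluster, was the 1 member of it with most of its UMIs in T cells, 37.9% in CD8 and 22.7% in CD4.

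**Figure D4:**
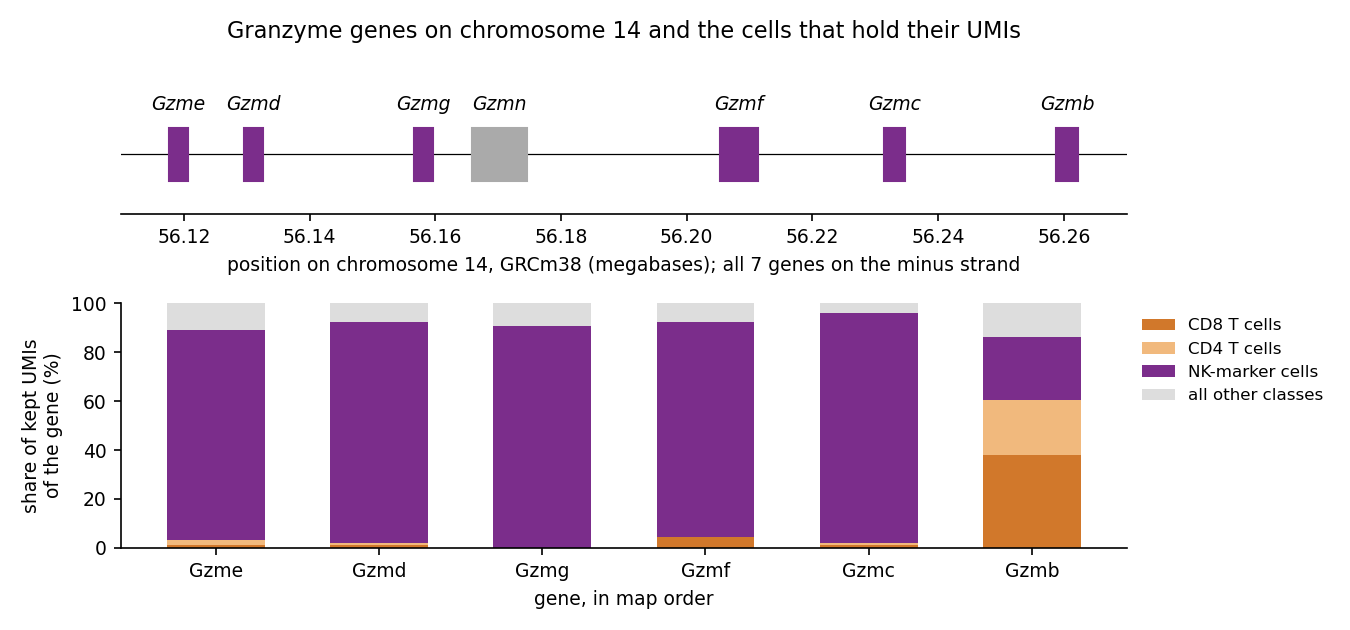
The 7 granzyme genes of chromosome 14 drawn to scale in GRCm38 (members in purple, Gzmn in grey), and under them, for the 6 members in map order, the share of the kept UMIs of each gene that lay in CD8 T cells, CD4 T cells, NK-marker cells and all other classes. NK-marker cells hold 86.1% to 94.1% of the UMIs of the 5 genes from Gzme to Gzmc and 25.6% of those of Gzmb.

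Sequence similarity limits how well the 5 genes can be told apart. Their transcripts were 69.9% to 90.4% identical over 10 pairs, with Gzmd and Gzme the closest, whereas each was 48.1% to 49.8% identical to Gzmb. In the last 400 bases, 12.3% of all stretches of 50 bases of Gzmd were found unchanged in another member, 6.27% of those of Gzme, 9.12% of Gzmf and 6.84% of Gzmg, and 0% for the other 5 members. Over whole transcripts, which random priming can reach, the shares were 21.5% for Gzmd, 19.1% for Gzme, 15.2% for Gzmg, 7.36% for Gzmf and 4.14% for Gzmc, and 0% for the other 4. Reads from such stretches could be split or dropped by the authors' counting, so single values of Gzmc to Gzmg are uncertain, by an amount that was not measured.

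The 6 members on chromosome 14 are shown with 300 bases of promoter each, since 5 of them were read mainly in the same few cells and Gzmb mainly in others. The sequences are RefSeq's for build GRCm38.p6, from 250 bases before to 50 after RefSeq's start of the gene, given 5′ to 3′ on the minus strand. All 9 members matched the table of 32851 promoters. Capitals mark matches, on either strand, of 4 of the 7 motifs searched: RUNX (TGTGGT), ETS (CAGGAAGT), CRE (TGACGTCA) and AP-1 (TGANTCA), and no match overlapped another. The windows are chr14:56262285-56262584 (Gzmb), chr14:56234608-56234907 (Gzmc), chr14:56132544-56132843 (Gzmd), chr14:56120576-56120875 (Gzme), chr14:56211358-56211657 (Gzmf) and chr14:56159530-56159829 (Gzmg). RefSeq and GENCODE place the start differently, and the Gzmb window lies wholly before the start of the GENCODE gene.
Gzmb: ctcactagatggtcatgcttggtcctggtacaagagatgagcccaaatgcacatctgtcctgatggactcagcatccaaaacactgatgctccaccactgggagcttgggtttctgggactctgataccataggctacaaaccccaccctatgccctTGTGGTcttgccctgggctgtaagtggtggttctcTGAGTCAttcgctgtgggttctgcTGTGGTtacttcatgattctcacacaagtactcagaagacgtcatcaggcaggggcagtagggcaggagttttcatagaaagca
Gzmc: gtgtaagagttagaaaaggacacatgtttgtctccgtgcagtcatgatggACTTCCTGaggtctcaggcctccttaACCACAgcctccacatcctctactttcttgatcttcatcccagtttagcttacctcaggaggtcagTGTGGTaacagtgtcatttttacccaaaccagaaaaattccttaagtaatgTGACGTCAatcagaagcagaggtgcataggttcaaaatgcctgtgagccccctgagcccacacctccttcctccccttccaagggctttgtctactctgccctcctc
Gzmd: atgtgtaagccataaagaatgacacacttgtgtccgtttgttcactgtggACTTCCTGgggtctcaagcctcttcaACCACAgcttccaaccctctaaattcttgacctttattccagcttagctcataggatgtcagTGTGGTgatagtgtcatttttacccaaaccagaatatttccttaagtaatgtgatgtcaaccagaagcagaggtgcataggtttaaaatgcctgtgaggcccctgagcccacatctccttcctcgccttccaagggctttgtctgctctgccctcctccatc
Gzme: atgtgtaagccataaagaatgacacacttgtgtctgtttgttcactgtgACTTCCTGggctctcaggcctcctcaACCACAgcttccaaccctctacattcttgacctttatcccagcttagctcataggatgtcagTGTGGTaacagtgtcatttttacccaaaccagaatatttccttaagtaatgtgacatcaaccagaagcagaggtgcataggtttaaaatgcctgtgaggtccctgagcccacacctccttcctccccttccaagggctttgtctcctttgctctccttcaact
Gzmf: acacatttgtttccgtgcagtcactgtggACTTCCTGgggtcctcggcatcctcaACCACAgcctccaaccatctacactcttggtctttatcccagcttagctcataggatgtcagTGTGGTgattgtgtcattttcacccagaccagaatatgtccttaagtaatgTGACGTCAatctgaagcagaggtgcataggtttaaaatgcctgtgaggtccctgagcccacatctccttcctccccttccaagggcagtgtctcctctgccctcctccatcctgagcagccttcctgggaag
Gzmg: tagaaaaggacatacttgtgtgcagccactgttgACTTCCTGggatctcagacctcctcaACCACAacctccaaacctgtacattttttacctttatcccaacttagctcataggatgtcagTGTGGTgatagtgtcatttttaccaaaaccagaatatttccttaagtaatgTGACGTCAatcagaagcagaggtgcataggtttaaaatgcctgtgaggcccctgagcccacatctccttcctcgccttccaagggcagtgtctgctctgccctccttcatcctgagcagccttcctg

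The 5 promoters from Gzmc to Gzmg carried the same arrangement: 1 ETS match, 1 RUNX match after it and another RUNX match further on. Their promoters were 74.6% to 93.4% identical over 10 pairs, and 46.8% to 51.7% identical to that of Gzmb. RUNX matches were in all 9 members' promoters (16.8% of all promoters have one), and ETS matches in 6 (Gzmc to Gzmg and Prf1; 3.33% of all). The full CRE letters were in Gzmc, Gzmf and Gzmg, at -57, -82 and -77 from RefSeq's start, where 1.79% of all promoters have them. With at most 1 mismatch the CRE letters were in all 6 (12.5% of all promoters), as TGATGTCA in Gzmd, TGACATCA in Gzme and AGACGTCA in Gzmb. An AP-1 match was in Gzmb alone of the 9 (7.81% of all).

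The other motifs searched were T-box (GGTGTGA), STAT (TTCNNNGAA) and NFAT (GGAAAA), on both strands. T-box letters were in Nkg7 (3.98% of all promoters), STAT letters in Gzmb and Nkg7 (8.30%) and NFAT letters in Gzma (23.4%). A match is a description of letters, not a site or a cause, and genes copied from one another share letters.

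Several members could be read in a single T cell. Of the 96 CD8 T cells 5 had no member, 23 had 1, 30 had 2, 25 had 3, 8 had 4, 3 had 5 and 2 had 6. Gzmb and Nkg7 shared 52 cells, 86.7% of the cells with Gzmb and 65.8% of those with Nkg7. Of the cells with Prf1, 71.9% also had Gzmb (23 cells) and 87.5% Nkg7 (28 cells), and of the cells with Gzma 73.9% had Gzmb (17 cells). Among all 96 cells Nkg7 was read in 82.3% (79 cells) and Gzmb in 62.5% (60 cells). Of the 59 CD4 T cells 13 had no member, 21 had 1, 18 had 2, 6 had 3 and 1 had 6.

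Over the 180 T cells of both pools, the genes whose level went most with the summed members, among 3729 genes with at least 50 UMIs, were Cd8a (Pearson r 0.44), Cd3e (0.43), Cd8b1 (0.42), Thy1 (0.38), Runx2 (0.36), Gimap3 (0.36), Ablim1 (0.36), Trac (0.36), Il2rb (0.34) and Ly6c2 (0.34). The measure was ln(1 + UMIs per 10000) in each cell. Cd3e, Cd8a and Cd8b1 are genes of the rules that called and split these T cells, so their place at the top is no separate result. At the other end stood the myeloid genes Plaur (-0.49) and Tyrobp (-0.48). The cells share a capture and differ in depth, with which the summed members had an r of -0.26. In sparse counts a weak correlation is no finding.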

How the data were processed

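The deposited table gives the UMI count of each gene in each putative cell, which the authors made with the BD Rhapsody WTA Analysis Pipeline 1.11 (GRCm38, GENCODE M19, error-corrected molecules), and a second table gives Sample Tag read counts. A cell was assigned to the tag with at least 75% of at least 10 tag reads, and kept with 150 to 5000 genes and at most 20% mitochondrial UMIs. Pairs of tags in 1 cell gave 941 multiplets of 10852 cells, which predicts 942 same-tag doublets; the 942 cells with the highest Scrublet scores (scanpy 1.11.5) were removed, since the automatic threshold marked 1 of 9911 cells (0.0101%) and has not worked. T cells had at least 2 CD3 UMIs. Sums of UMIs were compared with exact intervals in scipy 1.17.1, numpy 2.4.6 and pandas 2.3.3 under Python 3.11.15. The ratio step was checked on simulated counts. Sequences were compared with Biopython 1.88, positions came from GENCODE M21 (GRCm38), and figures from matplotlib 3.10.9. A count of 0 was set to 3 where a ratio over all genes needed it. Members and gene lists were chosen with earlier results of these data known. Named genes are all 9 members; of each other list, up to 4 genes past 2-fold with the most UMIs (at least 20 over both groups); and the 10 genes most correlated with the summed members over T cells. Genes named outside this rule (Gzmk, Stx11, Cst7, Ikzf2, the genes that split T cells, and the most abundant or absent markers of a list) were chosen after their values were seen. Alternatives changed 1 choice at a time among tag share, gene and mitochondrial limits, doublets, CD3 and lineage bars, macrophage-rich cells, scaling and the highest cell.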

Additional observations from a re-analysis of the deposited data

Results flagged for a closer look

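The cells that the comparisons did not use also held UMIs of Gzmc to Gzmg, above the 3 counts that a count of 0 allows, and 10 of them held at least 20, of which 8 were outside the limits or the tags and 2 were removed in the doublet step. The largest value was 2052 UMIs in a cell of 37648 UMIs and 5907 genes whose tag reads were split between the pools; it had 28 NK-marker UMIs and 19 of the basophil gene Mcpt8. A cell with 5 tag reads and 26.4% mitochondrial UMIs had 940. A telmisartan cell with 36.1% mitochondrial UMIs had 509, and a control cell with 58.4% had 361. Of the 8, the other 4 had 63 UMIs (few tag reads, 23.0% mitochondrial), 47 (telmisartan, 80.5%), 24 (telmisartan, 24.6%, with 6 CD3 UMIs) and 20 (split tags, 80.4%). The 2 cells of the doublet step had 107 (telmisartan, 9804 UMIs, with 0 CD3 and 0 NK-marker UMIs) and 22 (control, 12585 UMIs, with 10 CD3 UMIs). Of all 10370 UMIs of these 5 genes, kept cells held 54.2%, cells with split tags 21.0%, cells over the mitochondrial limit 12.7%, cells with few tag reads 9.84% and cells of the doublet step 1.99%. Which cells these were was not tested.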

How the results depend on the processing

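Of 338 values under alternatives, 255 stayed within the counting interval of the reported value, 78 moved beyond it and 5 of those whose interval left out 0 turned. Gzmb in CD4 T cells (-0.26, telmisartan to control, interval across 0) was 0.027 at 10% mitochondrial UMIs and ran down to -0.82 over the alternatives. As a mean of UMIs per 10000 of each cell it was at -0.73 relative to the median of all genes. Summed Gzmc to Gzmg in CD8 against CD4 T cells of the telmisartan pool (-0.75, also across 0) was 0.47 without the mitochondrial limit and 1.12 with strict lineage. The cause was not tested. The summed members in CD8 T cells (telmisartan to control, 1.07 on the log2 scale) kept their direction throughout: 1.26 with a tag share of 90%, 0.78 without doublet removal, 0.83 with at least 1 and 0.85 with at least 4 CD3 UMIs, 0.85 with strict lineage, 0.67 without macrophage-rich cells, 0.43 as a mean of UMIs per 10000 of each cell, 0.13 per cell unscaled and 0.13 per T-marker UMI. In CD4 T cells (0.30) the sum was 0.59 at 10% mitochondrial UMIs, and turned to -0.024 without macrophage-rich cells, -0.27 unscaled and -0.18 per T-marker UMI. These last 2 scalings move every gene alike, and under each the sum was 0.27 above the median of all genes. Gzma in CD8 T cells turned to -0.035 as a mean of UMIs per 10000. In the control pool, Gzmb in CD8 against CD4 T cells turned to 0.0039 with strict lineage, and the sum (0.41) was 0.71 as a mean of UMIs per 10000. In the telmisartan pool the sum (1.18) was 1.40 at a tag share of 90%, 0.99 without doublet removal, 0.87 with 1 CD3 UMI and 0.63 unscaled. The CD8 share of T cells was 32.3% (control) and 36.8% (telmisartan) with 1 CD3 UMI. The NK-marker share of Gzmc to Gzmg UMIs (90.3%) was 87.1% without doublet removal, 73.7% without the mitochondrial limit, 85.3% without the top cell and 68.7% over all putative cells, where 9 cells passed the rule and the 7 reported ones held 48.9%. These 4, all alternatives for summed Gzmc to Gzmg ratios, the scaling per T-marker UMI and the T cell ratios without a mitochondrial limit were chosen after seeing the data. No paired analysis was possible because each group is 1 pool.

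Depth limits the sparse members most. With 37 and 59 CD8 and 27 and 32 CD4 T cells, Gzmc, Gzmd, Gzme and Gzmg had too few UMIs for a ratio in most comparisons, and 7 NK-marker cells cannot compare the pools. Pool, tag and treatment cannot be told apart, and mice within a pool cannot be separated. The pools passed the limits in unequal shares, 4833 of 10222 telmisartan and 5078 of 8738 control cells, and the part of this in the results was not tested.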

Other observations

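Cells with CD3 UMIs outside the CD8 and CD4 classes also held members. The 25 unresolved T cells were at 331 CPM (252 to 425) of Gzmb, seen in 10 of them, and at 60.6 CPM of Nkg7, with 1 UMI each of Gzma, Prf1 and Gzmg. Their macrophage markers were at 15990 CPM and their T cell markers at 1813 CPM. The 137 cells with 1 CD3 UMI were at 10.9 CPM of Gzmb and 17.7 CPM of Nkg7, seen in 9 and 15 cells, with macrophage markers at 17261 CPM and T cell markers at 298 CPM. The part of macrophage RNA in these lower levels was not tested.

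T cells over the mitochondrial limit were read as well. In the telmisartan pool 16 CD8 cells over the limit were at 609 CPM of Gzmb (23 UMIs in 8 cells) and 662 CPM of Nkg7 (25 UMIs in 10 cells). The same 16 cells had 30 UMIs of Gzmc to Gzmg, in 4 of them, or 794 CPM, against 97.2 CPM in the kept telmisartan CD8 cells, and 11 of the 30 were Gzmf. In the control pool 4 CD8 cells over the limit had 2 UMIs of Gzmb, 6 of Nkg7 and 4 of Gzmc to Gzmg. Cells of the doublet step held 12.4% of all Gzmb UMIs and 13.7% of all Nkg7 UMIs but 3.26% of Gzma, and cells with split tags held 17.2% of Gzmb.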
